A study of Zea mays with 8 samples.

Results

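Low nitrogen (LN, 0.04 mM) was compared with high nitrogen (HN, 4 mM) in the elongation zone of leaf 6 of the maize inbred line B73, raised in hydroponic culture. The elongation zone is the stretch of a growing leaf in which cells that have left the division zone lengthen. The comparison used 4 of the 8 RNA sequencing libraries, LN elongation replicates 1 and 2 and HN elongation replicates 1 and 2, here called the LN and HN libraries. The other 4, with 2 LN and 2 HN libraries of the division zone of the same leaf, entered the model for the spread and the comparison of zones. All plants were of the same line and differed by nitrogen supply only, as far as the labels say. They state 2 biological replicates per tissue, without saying whether a library came from 1 plant or from several. The study's question is how leaf growth is reduced when nitrogen is scarce, and what part gibberellin has in it.

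A locus entered the comparison when its mean was at least 1 FPKM (fragments per kilobase of transcript, scaled to the number of mapped fragments) in the LN or the HN libraries, which held for 23141 of 43110 loci. The unit was judged from the deposited values, since neither the labels nor the file header states it. This choice used the level of a locus and not its change. Changes are differences of log2(FPKM + 1) between group means, LN minus HN, which understate changes of loci near or under 1 FPKM. A locus was called when its adjusted p was under 0.05 in limma, a linear model fitted to all tested loci with Benjamini-Hochberg adjustment, and "rose" and "fell" are used only of called loci. Of the tested loci 2020 carried an informative gene name, and 1152 of the 1391 loci in 47 lists of genes of known role passed the filter on level.

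Nitrogen enters leaf cells mainly as nitrate and amino acids, and most of it is built into protein. In a leaf much of that protein belongs to ribosomes and to the photosynthetic apparatus, in maize that of the C4 pathway, so both are known as the main sinks of leaf nitrogen. Cells in an elongation zone stop dividing, take up water and ions, loosen and lay down primary wall, and begin to build plastids. Plants are known to sense nitrogen through nitrate itself and through hormones, cytokinin among them, whose level rises with nitrate supply.

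HN replicate 2 stood apart from HN replicate 1, and results are therefore given with it and without it. After the levels of a gene, parentheses give its log2 change with all libraries and then that without HN replicate 2, written as HN 2. The HN libraries differed from each other by a median SD of 0.2833 on the log2 scale, against 0.102 between the LN libraries and 0.1478 and 0.1199 between the LN and the HN division libraries (n = 2 libraries each). Summed values were 668028 and 710932 FPKM in the LN libraries and 814578 and 1113553 FPKM in the HN libraries. The absolute depth is unknown. Steps between low values put relative depth at 1.31 and 1.21 in the LN libraries and 0.853 in HN replicate 2, with HN replicate 1 set to 1, but only 28.3 to 33.3% of the low values fell in step. The zone label was checked against marker lists. Summed primary wall cellulose synthases were between 609 and 1034 FPKM in the 4 elongation libraries, against 191 to 247 FPKM in the 4 division libraries. Summed aquaporins were between 3995 and 7391 FPKM, against 1082 to 1638 FPKM in the division zone. Summed mitosis genes, from 175 to 278 FPKM in the elongation libraries, were lower than the 536 to 580 FPKM of the division libraries but above 0. Core histone and DNA replication genes, also markers of dividing tissue, were mostly lower in LN than in HN. The histone gene his2a1 was at 165 and 157 FPKM in the LN and 563 and 946 FPKM in the HN libraries. In the division libraries it was at 1764 to 2761 FPKM. The replication gene PCNA was at 12.8 and 9.45 FPKM in the LN and 23.4 and 46.4 FPKM in the HN libraries, against 138 to 157 FPKM there.

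Limma called 5833 loci, 25.2% of those tested. LN was higher at 2616 (11.3%) and lower at 3217 (13.9%). Without HN replicate 2 it called 4582 (19.8%), higher at 1937 (8.37%) and lower at 2645 (11.4%). Both fits called 3625 loci with the same sign (15.7%), 1338 higher (5.78%) and 2287 lower (9.88%), and 0 with opposite signs. Here "in both fits" stands for these calls, with and without HN replicate 2, and the percentages are the background for the counts below. Both LN libraries lay above both HN libraries at 8420 loci (36.4%) and below them at 6883 (29.7%). Most loci named below were chosen by their calls, which favours such separation, so it adds no support for them. The median change of all tested loci was 0.08, and 0.11 without HN replicate 2. The number of calls leaned on single libraries: it was 641 without LN replicate 1, 1337 without LN replicate 2, 10356 without HN replicate 1 and 3300 to 3862 without a division library. A model that gave each group its own weight, low for the variable HN libraries, called 2096 loci (9.06%), higher at 569 (2.46%) and lower at 1527 (6.6%). A fit of the 2 elongation groups alone called 42, with 7146 at an unadjusted p under 0.05. Where a library was left out its partner was assumed to vary like the other groups.

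The balance of rises and falls depended on the scaling. With the values as deposited, 44.85% of the calls were higher in LN. When libraries were set to an equal median ratio the share was 30.86%, the median of all loci shifted to -0.004, and 1732 rises and 3881 falls were called. Set to an equal total it was 77.7%, with a median of 0.46 over all loci and with 6948 rises and 1998 falls. With an equal total, falls were called at 27 core histone, 36 cytosolic ribosomal protein, 13 photosystem and 28 plastid loci, against 27, 37, 14 and 33 as deposited. The side with more calls changed with an equal total in the lists of D-type cyclins, bHLH and bZIP factors, expansins, gibberellin, jasmonate, heat shock, redox defence, and sucrose and starch, from more falls to more rises. With an equal median ratio it changed for cytokinin and for the abscisic acid and ethylene list, which then had more falls.

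Among named loci called in both fits, with no overlap of the LN and HN libraries and a mean of 5 FPKM or more in the group that was higher, the 12 largest rises and falls were taken. Rises were led by CER1 (GRMZM2G066578), a name used for an enzyme that makes the alkanes of cuticular wax. It stood at 14.96 and 17.3 FPKM in the LN and 2.49 and 2.05 FPKM in the HN libraries, a log2 change of 2.39 (SE 0.20, adjusted p = 0.00275) and 2.29 without HN replicate 2. Its locus lies on chromosome 5, 29918040 to 29925862 of B73 RefGen_v3, the build of all positions given here. TCP30 (chromosome 3, 194948684 to 194951389), of a family of plant transcription factors that regulate cell proliferation, was at 11.8 and 9.85 FPKM in the LN and 0.954 and 2.43 FPKM in the HN libraries (2.19, 2.59 without HN 2). A locus named Laccase-13 (GRMZM2G132169), an enzyme class that polymerises lignin, was at 4.23 and 6.25 FPKM in the LN and 0.443 and 0.403 FPKM in the HN libraries (2.11, 2.09 without HN 2). Both LN libraries of each were several times above both HN libraries, and the HN libraries of CER1 and Laccase-13 were close together. The gene serk1, a receptor kinase of the family that acts as co-receptor for brassinosteroid and other signals, was at 6.87 and 6.55 FPKM in the LN and 1.55 and 1.34 FPKM in the HN libraries (1.66, 1.597 without HN 2).

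The falls among these loci were larger than the rises. The lipoxygenase lox1 (chromosome 3, 168738873 to 168882335) was at 11.7 and 18.9 FPKM in the LN and 367 and 324 FPKM in the HN libraries (-4.45, adjusted p = 0.00179, -4.53 without HN 2). D14a (chromosome 1, 22436998 to 22439491), named after the strigolactone receptor, was at 1.58 and 1.33 FPKM in the LN and 36.95 and 43.1 FPKM in the HN libraries (-4.06, adjusted p = 0.000667, -3.95 without HN 2). Polyamine oxidase pao1 (chromosome 10, 62260920 to 62265303), which breaks down polyamines, was at 81.9 and 91.03 FPKM in the LN and 765 and 1387 FPKM in the HN libraries (-3.56, -3.13 without HN 2). In these cases every LN library was far under every HN library, and only for pao1 did the HN libraries differ by much. GLK44 (chromosome 1, 280284828 to 280286869), of the GLK family of transcription factors, was at 0.366 and 0.319 FPKM in the LN and 10.3 and 13.6 FPKM in the HN libraries (-3.26, -3.07 without HN 2). LOB14, of the lateral organ boundaries family, was at 0.173 FPKM and listed at 0 in the LN libraries, against 9.04 and 9.72 FPKM in the HN libraries (-3.26, -3.21 without HN 2). HB (chromosome 9, 145596856 to 145598153), a locus with that symbol alone, was listed at 0 in both LN libraries and was at 9.18 and 10.2 FPKM in the HN libraries (-3.42, -3.35 without HN 2). The remaining falls of the 12 were kin1 (-3.38, -2.94 without HN 2), pcr1 (-2.69, -2.49 without HN 2) and the photosynthesis and benzoxazinoid genes CAB48, cab-m1, PEPC1 and CYP71C4, described with their groups. Of the 24 loci, 18 were called whichever library was left out.

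**Figure D1:**
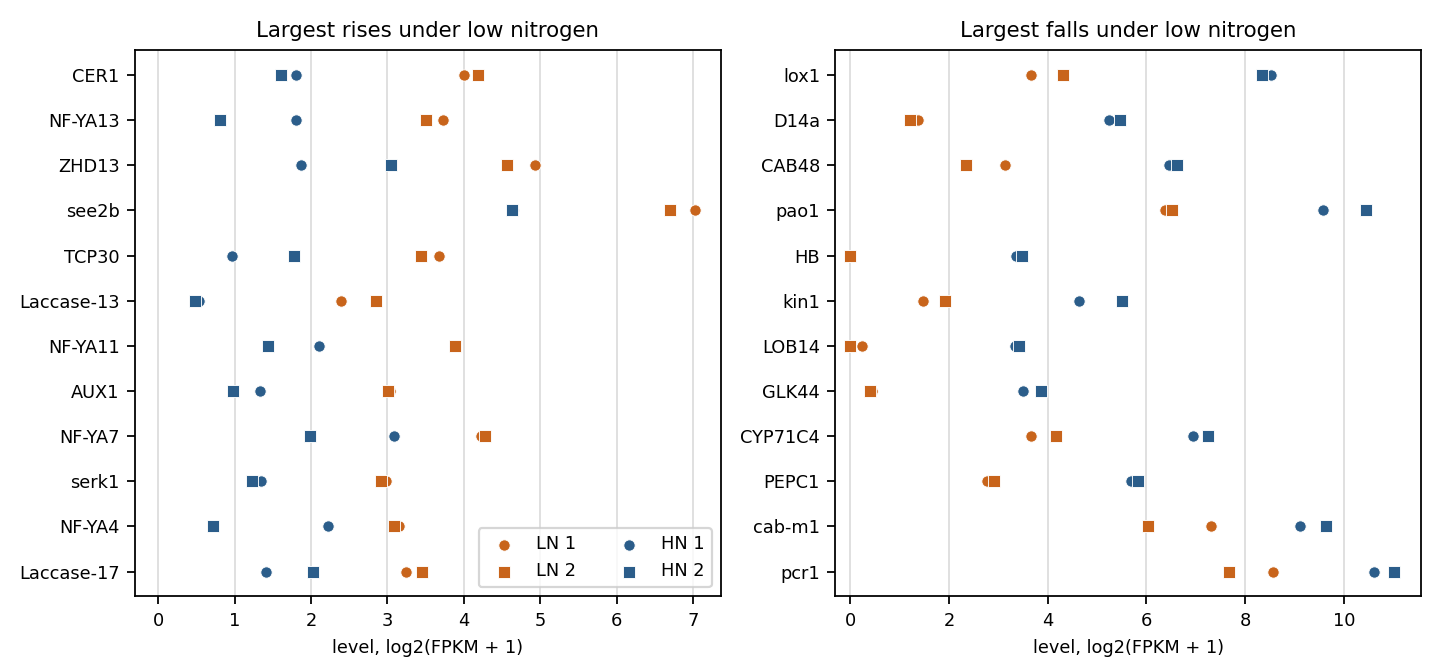
Levels in FPKM, on a log axis after adding 1, of the 12 largest named rises and 12 largest named falls, with a point for each LN and HN elongation library. Both LN points lie on one side of both HN points at every locus, which the choice of loci required; HB is at 0 in both LN libraries.

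Genes of chromatin and of DNA synthesis fell while most mitosis genes did not. Of 28 core histone loci tested, 27 fell with all libraries and 25 in both fits, against 9.88% of all loci, with a median of -2.10, and -1.59 without HN replicate 2. Histones package newly made DNA, and their transcripts are known to accumulate in S phase. Summed over the list they came to 2080.4 and 1851 FPKM in the LN libraries, against 6013 and 11496 FPKM in the HN libraries. HN replicate 2 was above HN replicate 1 by a median of 0.98 on the log2 scale, and at 27 of the 28 loci both LN libraries were under both HN libraries, against 29.7% of all loci. The H2B gene his2b5 was at 67.7 and 69.3 FPKM in the LN and 296 and 582 FPKM in the HN libraries (-2.58, SE 0.37, adjusted p = 0.00712, -2.09 without HN 2). An H3 locus named H3C2 (XLOC_040053) was at 109 and 102 FPKM in the LN and 419 and 842 FPKM in the HN libraries (-2.48, -1.98 without HN 2). An H4 locus named H4C7 (XLOC_022714) was at 115 and 74.1 FPKM in the LN and 417 and 721 FPKM in the HN libraries (-2.56, -2.16 without HN 2), with LN replicate 2 the lowest. The locus that did not fall, cenH3, was at 15.8 and 14.1 FPKM in the LN and 14.5 and 17.2 FPKM in the HN libraries (-0.07, 0.05 without HN 2). The 28 loci carry only 9 distinct identifiers and 7 names, and near-identical histone copies can share reads, so the count is not one of independent genes. In bulk tissue fewer cells of a type and less RNA per cell cannot be told apart.

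DNA replication genes fell at 9 of 16 loci in both fits (median -0.96, and -0.92 without HN replicate 2), and none rose in either fit. RNRS1, the small subunit of ribonucleotide reductase, which makes deoxynucleotides, was at 12.9 and 8.87 FPKM in the LN and 39.4 and 72.2 FPKM in the HN libraries (-2.21, -1.78 without HN 2). SLD5, a subunit of the GINS complex of the replicative helicase, was at 2.76 and 2.27 FPKM in the LN and 11.1 and 13.4 FPKM in the HN libraries (-1.91, -1.78 without HN 2); its locus shares its span with another. The origin recognition subunit orc2 was at 0.952 and 1.34 FPKM in the LN and 4.45 and 4.31 FPKM in the HN libraries (-1.33, -1.35 without HN 2). The helicase subunits MCM6 and MCM7 had changes of -1.11 and -1.05, and of -1.06 and -0.99 without HN 2. For all 5 the LN libraries lay under both HN libraries. The other origin recognition subunits tested, orc1, orc3 and orc4, were not called, with changes of -0.11, -0.15 and -0.15 and overlap of the groups. Of 21 linker histones, high mobility group proteins and histone chaperones, 7 fell in both fits and none rose. Among them nfd106, of the group D of nucleosome and chromatin assembly factors, was at 20.997 and 19.8 FPKM in the LN and 72.7 and 96.5 FPKM in the HN libraries (-1.99, -1.79 without HN 2). Among 8 loci of D-type cyclins and the retinoblastoma pathway, dnp1, dnp2 and RBR3 fell in both fits. RBR3, of the retinoblastoma-related family, was at 1.77 and 1.39 FPKM in the LN and 4.67 and 3.76 FPKM in the HN libraries (-1.01, -1.14 without HN 2). Other members of that family went the other way. RBR2 rose with all libraries (1.13, 0.85 without HN 2), and RBR1 was higher in LN without a call (1.01, 0.49 without HN 2). Leaving out LN replicate 1 kept 1 call of lower for histones, 3 for replication and 2 for the other chromatin genes; without LN replicate 2 the counts were 0, 2 and 3.

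Mitosis and cytokinesis genes, which drive chromosome segregation and the new cell wall, did not show that fall. Of 18, with all libraries 5 rose and 2 fell, and in both fits 2 rose and none fell (median 0.19, and 0.24 without HN 2). The B-type mitotic cyclin4 was at 43.7 and 43.3 FPKM in the LN and 25.9 and 24.5 FPKM in the HN libraries (0.77, adjusted p = 0.0103, 0.73 without HN 2). The kinesin-related krp6, of motor proteins, was at 11.7 and 12.7 FPKM in the LN and 7.87 and 3.66 FPKM in the HN libraries (1.04, 0.58 without HN 2). Both LN libraries of each lay above both HN libraries. Their sum over the list was 278 and 259 FPKM in the LN libraries, against 204 and 175 FPKM in the HN libraries. Mitosis genes mark dividing tissue, and the part of cell makeup in the fall of the histones was not tested. None of the list was called without LN replicate 1 or without LN replicate 2.

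**Figure D2:**
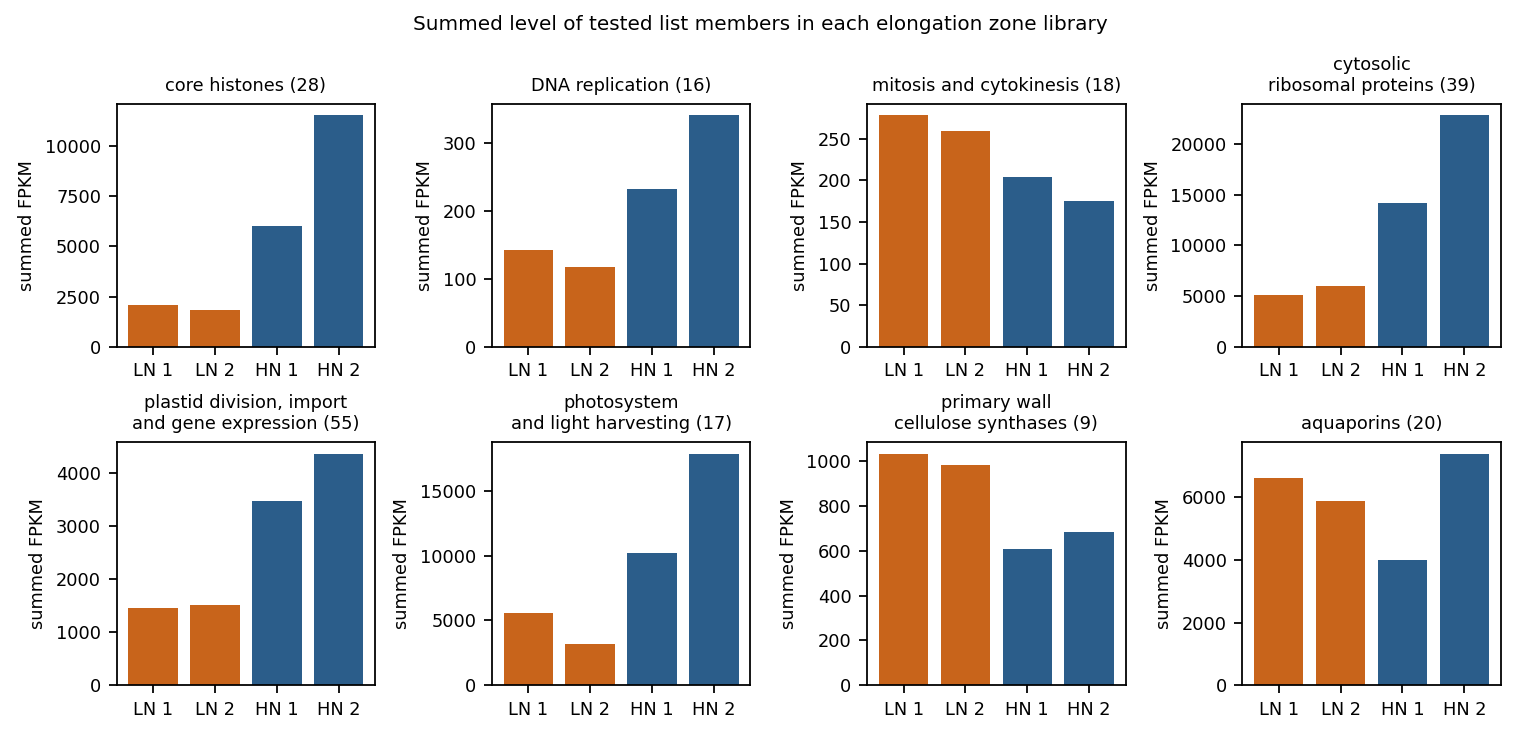
Summed FPKM of 8 gene lists in each elongation library, LN left of HN, with a panel and scale of its own for each list starting at 0. The histone sum is 2080 and 1851 FPKM in the LN and 6013 and 11496 FPKM in the HN libraries, and HN replicate 2 is the highest for histones and ribosomal proteins.

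Genes for the cytosolic translation machinery fell widely. Of 39 cytosolic ribosomal protein loci, 37 fell with all libraries and 29 in both fits, and none rose (median -1.67, and -1.28 without HN replicate 2). RP-P0, of the ribosomal stalk, was at 165 and 193 FPKM in the LN and 661 and 866 FPKM in the HN libraries (-2.08, adjusted p = 0.00523, -1.88 without HN 2). The small subunit protein rps24 was at 44.5 and 57.8 FPKM in the LN and 217 and 351.3 FPKM in the HN libraries (-2.42, -2.08 without HN 2). A further small subunit protein, rps13, was at 78.7 and 85.7 FPKM in the LN and 263 and 385 FPKM in the HN libraries (-1.94, -1.67 without HN 2). At these loci HN replicate 2 was above HN replicate 1, and the LN libraries were close to each other and under both. A further 11 loci carry ribosomal protein names that are also used for plastid genes, and 7 of them fell in both fits. Among 13 translation factors, 4 fell in both fits. EF1-A, which brings aminoacyl-tRNA to the ribosome, was at 461 and 479 FPKM in the LN and 983 and 1737 FPKM in the HN libraries (-1.47, -1.06 without HN 2), and TIF5A (XLOC_014055) was at 225 and 250.1 FPKM in the LN and 477 and 664 FPKM in the HN libraries (-1.24, -1.01 without HN 2). The median gap between the HN libraries was 0.69 for ribosomal proteins on the log2 scale. Without LN replicate 1 and without LN replicate 2, 3 and 9 ribosomal protein loci were called, with 0 and 3 of the names shared with plastid genes, and no translation factor in either case.

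Genes of the photosynthetic apparatus fell, from antenna proteins to carbon fixation. Of 17 photosystem and light-harvesting loci, 14 fell with all libraries and 7 in both fits (median -1.65, and -1.28 without HN replicate 2). CAB48, a chlorophyll-binding protein whose locus carries several identifiers and shares its span with another, was at 7.82 and 4.102 FPKM in the LN and 87.2 and 97.8 FPKM in the HN libraries (-3.80, adjusted p = 0.00179, -3.72 without HN 2). The light-harvesting gene cab-m1 was at 158 and 64.7 FPKM in the LN and 554 and 799 FPKM in the HN libraries (-2.71, -2.44 without HN 2), and LN replicate 1 lay well above LN replicate 2. The photosystem I subunit psaN was at 153 and 95.6 FPKM in the LN and 352.5 and 605 FPKM in the HN libraries (-1.93, -1.54 without HN 2), and psbs1, which acts in heat dissipation, was at 113 and 83.1 FPKM in the LN and 228 and 281 FPKM in the HN libraries (-1.38, -1.23 without HN 2). For the light-harvesting antenna alone, 8 of 10 fell with all libraries and 3 in both fits.

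The C4 cycle, Calvin cycle and Rubisco assembly list had 11 of 16 falls in both fits, with a median of -1.16 whether or not HN replicate 2 was included. PEPC1, the enzyme that first fixes carbon in C4 mesophyll, was at 5.86 and 6.499 FPKM in the LN and 50.6 and 55.6 FPKM in the HN libraries (-2.91, adjusted p = 0.00179, -2.85 without HN 2). The small Rubisco subunit rbcS (XLOC_010820) was at 64.2 and 49.8 FPKM in the LN and 261 and 385 FPKM in the HN libraries (-2.47, -2.19 without HN 2), and rca1, Rubisco activase, was at 2.74 and 1.73 FPKM in the LN and 12.95 and 10.2 FPKM in the HN libraries (-1.96, -2.13 without HN 2). HN replicate 2 minus HN replicate 1 had a median of -0.04 on the log2 scale in this list. Genes of carotenoids, chlorophyll and heme, here called pigment genes, fell at 9 of 24 loci in both fits and none rose (median -0.52, and -0.80 without HN 2). The falls include VP14, of abscisic acid synthesis, at 0.511 and 0.411 FPKM in the LN and 2.12 and 1.80 FPKM in the HN libraries (-1.02, -1.10 without HN 2). ChlI, a subunit of magnesium chelatase in chlorophyll synthesis, was at 73.2 and 67.5 FPKM in the LN and 269 and 376 FPKM in the HN libraries (-2.16, -1.92 without HN 2). The protochlorophyllide oxidoreductase por was at 176 and 153 FPKM in the LN and 425 and 487 FPKM in the HN libraries (-1.47, -1.37 without HN 2), and PSY1, phytoene synthase of carotenoid synthesis, was at 19.2 and 21.4 FPKM in the LN and 37.1 and 37.3 FPKM in the HN libraries (-0.85, -0.84 without HN 2). Falls extended to genes that build plastids. Of 55 for plastid division, import and gene expression, 29 fell in both fits and none rose (median -1.02, and -0.98 without HN replicate 2). CFM3, a factor for intron splicing in the plastid, was at 16.7 and 15.8 FPKM in the LN and 45.3 and 48.7 FPKM in the HN libraries (-1.47, -1.42 without HN 2). A CPN60I locus (XLOC_026919), of a chaperonin, was at 17.5 and 18.1 FPKM in the LN and 71.5 and 79.8 FPKM in the HN libraries (-2.02, -1.95 without HN 2), and rnc1, an RNA binding protein for plastid introns, was at 24.1 and 23.3 FPKM in the LN and 62.4 and 57.3 FPKM in the HN libraries (-1.30, -1.36 without HN 2). Without LN replicate 1, calls of lower numbered 4 for photosystems, 5 for the carbon fixation list, 4 for pigments and 14 for plastids. Without LN replicate 2 they numbered 3, 9, 6 and 25.

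**Figure D3:**
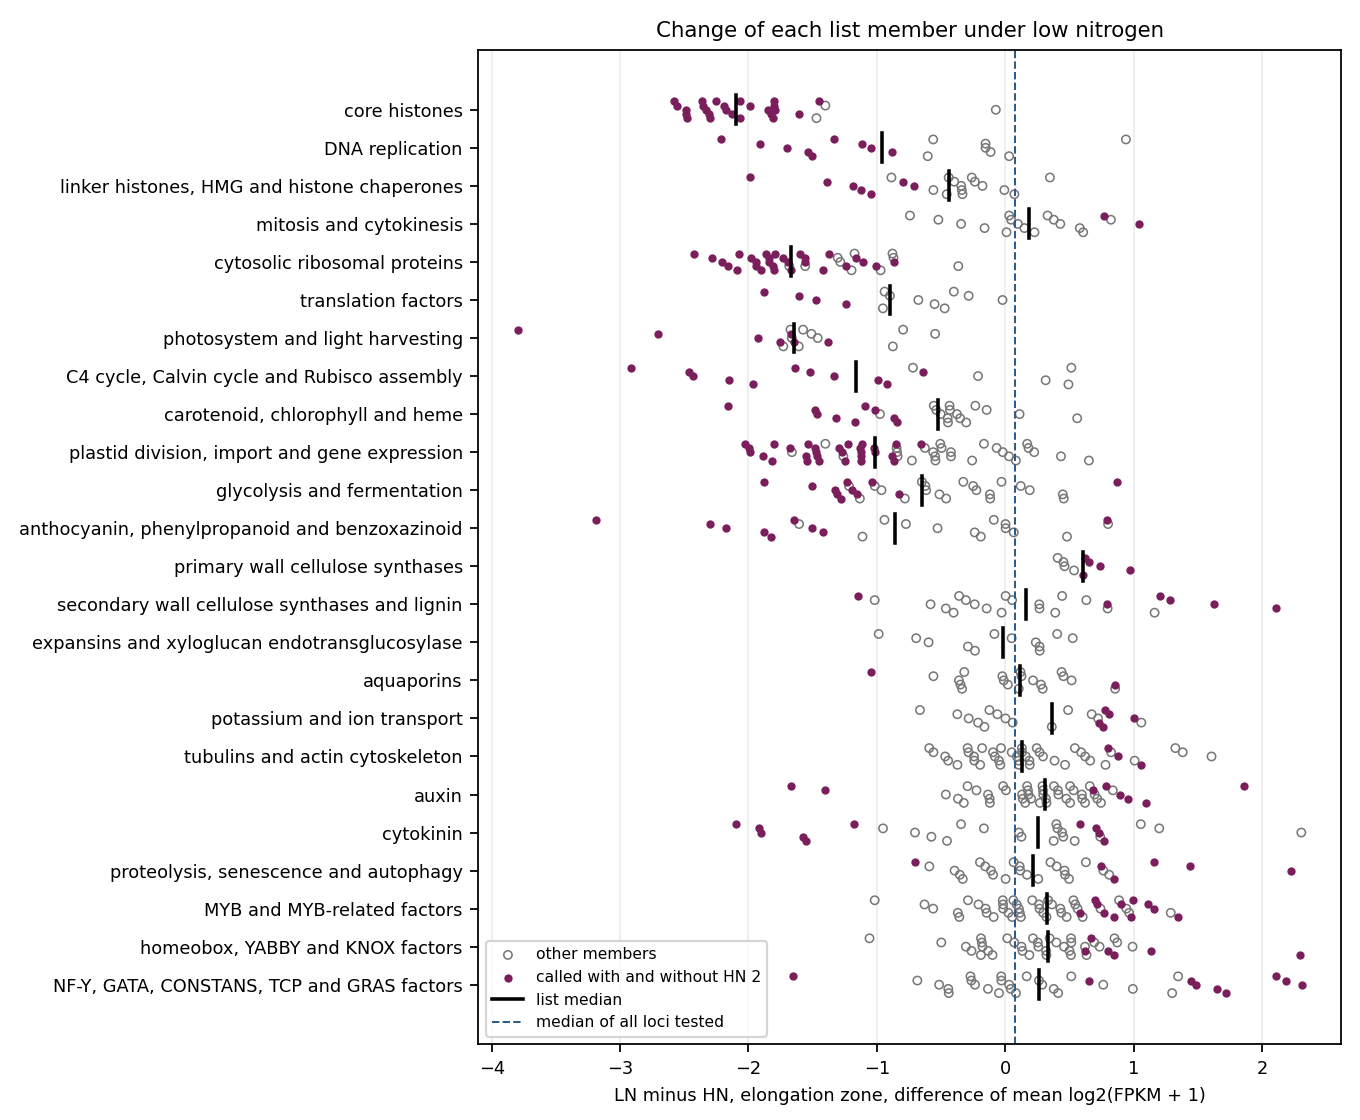
Log2 changes, LN minus HN, of the tested members of 24 gene lists, filled where called in both fits, with the list median as a bar and the median of all tested loci, 0.08, as a dashed line. Core histones, cytosolic ribosomal proteins, photosystem and C4 members lie left of the dashed line almost throughout, while filled points for members of the NF-Y, homeobox and proteolysis lists lie right of 2.

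In the list of nitrogen uptake and assimilation genes 5 of 14 tested loci fell in both fits and none rose in both (median -0.53, and -0.57 without HN 2). The falls were all of nitrite reductase, nitrate reductase and glutamine synthetase loci. Nitrite reductase NIR, which reduces nitrite to ammonium in plastids, was at 12.8 and 6.98 FPKM in the LN and 25.6 and 32.8 FPKM in the HN libraries (-1.52, -1.34 without HN 2). Nitrate reductase NNR1 was at 3.91 and 1.52 FPKM in the LN and 10.6 and 18.5 FPKM in the HN libraries (-2.09, -1.72 without HN 2), and a glutamine synthetase locus GLN2 (XLOC_009297), which shares its span with another, was at 30.3 and 33.8 FPKM in the LN and 106 and 106 FPKM in the HN libraries (-1.70, -1.69 without HN 2). Both LN libraries lay under both HN libraries in each. GLN6 was at 0.514 and 0.485 FPKM in the LN and 2.32 and 1.48 FPKM in the HN libraries (-0.94, -1.15 without HN 2). NRT1.2, named as a nitrate transporter, was not called (-0.02, 0.08 without HN 2). It was at 4.21 and 5.44 FPKM in the LN and 4.48 and 5.32 FPKM in the HN libraries, with overlap of the groups. The locus AS of the list was not called either (-0.01, -0.06 without HN 2). The cytosolic glutamine synthetase Gln1-4 was higher in LN, at 828 and 786 FPKM in the LN and 337 and 593 FPKM in the HN libraries (0.85, adjusted p = 0.0799, 1.26 without HN 2); it was called only without HN replicate 2, at adjusted p = 0.0175. Without LN replicate 1 and 2, 3 and 1 loci of the list were called lower.

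Genes of the growing wall moved in small steps and in part the other way. Of 9 primary wall cellulose synthases, which make the cellulose of lengthening cells, 5 rose in both fits and none fell (median 0.61, and 0.71 without HN replicate 2). CesA-1 was at 108 and 104 FPKM in the LN and 52.3 and 54.6 FPKM in the HN libraries (0.97, adjusted p = 0.00602, 1.001 without HN 2) and CesA-2 at 228 and 227 FPKM in the LN and 136 and 137 FPKM in the HN libraries (0.73, 0.74 without HN 2). The LN libraries lay within a few FPKM of each other and above both HN libraries. The secondary wall and lignin list rose at 5 of 24 loci and fell at 1 in both fits. CesA12, a secondary wall cellulose synthase, was at 14.5 and 15.3 FPKM in the LN and 6.501 and 5.34 FPKM in the HN libraries (1.20, 1.08 without HN 2). CesA13 rose as well (0.79, 0.88 without HN 2). The more abundant cesa10 of this list was not called (-0.46, -0.25 without HN 2). It was at 62.1 and 66.4 FPKM in the LN and 76.3 and 103 FPKM in the HN libraries. CCR, an enzyme of lignin monomer synthesis, fell at 7.12 and 5.69 FPKM in the LN and 12.5 and 18.7 FPKM in the HN libraries (-1.15, -0.87 without HN 2). Laccases accounted for 3 of the rises among 7 tested. Expansins and xyloglucan endotransglucosylases, wall-loosening proteins, had no call in both fits among 12 (median -0.02, and 0.12 without HN replicate 2); the most abundant, expB8, was at 135 and 152 FPKM in the LN and 163 and 188 FPKM in the HN libraries (-0.29, -0.19 without HN 2). In the list of other wall synthesis genes 2 of 32 rose and 1 fell in both fits. CslF6-1, which makes mixed-linkage glucan of grass walls, was at 3.05 and 22.9 FPKM in the LN libraries, far apart from each other, and was listed at 0 in both HN libraries. Its change of 3.30 was called with all libraries, and that of 3.30 without HN replicate 2 was not (adjusted p = 0.1098). Without LN replicate 1, and likewise without LN replicate 2, 1 primary wall locus and 2 of the secondary wall list were called higher.

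Few aquaporins were called, while several genes of ion uptake rose. Of 20 aquaporins, 1 rose and 1 fell in both fits, and the sum was 6609 and 5891 FPKM in the LN libraries, against 3995 and 7391 FPKM in the HN libraries. The LN libraries thus lay between the HN libraries, and the list's median of 0.11 was 0.56 without HN replicate 2. PIP2-4, a plasma membrane water channel, was at 449 and 405 FPKM in the LN and 232 and 417 FPKM in the HN libraries, and was called higher only without HN replicate 2, as were PIP2-3 and TIP2-1. Potassium and ion transport genes rose at 5 of 19 loci in both fits and none fell. NHX3, a vacuolar cation/proton exchanger, was at 52.8 and 53.5 FPKM in the LN and 30.4 and 22.2 FPKM in the HN libraries (a fold of 2.02, and 0.79 on the log2 scale without HN 2). The high-affinity potassium transporters HAK25, HAK15, HAK12 and HAK18 rose by 0.76, 0.77, 0.73 and 0.81, and by 0.67, 0.62, 0.57 and 0.61 without HN 2. HAK25, the most abundant of these, was at 28.6 and 25.3 FPKM in the LN and 16.5 and 14.5 FPKM in the HN libraries. The HAK family as a whole was not shifted. Of 12 tested, 4 rose and 1 fell with all libraries, and the median change was 0.03, and 0.015 without HN 2. Of 6 proton pumps, vpp3, a pyrophosphatase of the vacuole, fell at 130.4 and 132 FPKM in the LN and 203 and 222 FPKM in the HN libraries (-0.69, -0.63 without HN 2). In the list of 43 tubulins and actin cytoskeleton genes 3 rose in both fits. None of 15 tubulins was called with all libraries, and 1, TUBG2, was called lower without HN replicate 2 (-0.64, adjusted p = 0.0483). The microtubule-cutting katanin ktn2 was at 11.8 and 13.6 FPKM in the LN and 6.64 and 6.29 FPKM in the HN libraries (0.87, 0.84 without HN 2). With an equal total 10 aquaporins, 24 cytoskeleton genes and 4 expansins or endotransglucosylases were called higher. None of the ion transport or cytoskeleton calls remained without LN replicate 1 or without LN replicate 2.

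**Figure D4:**
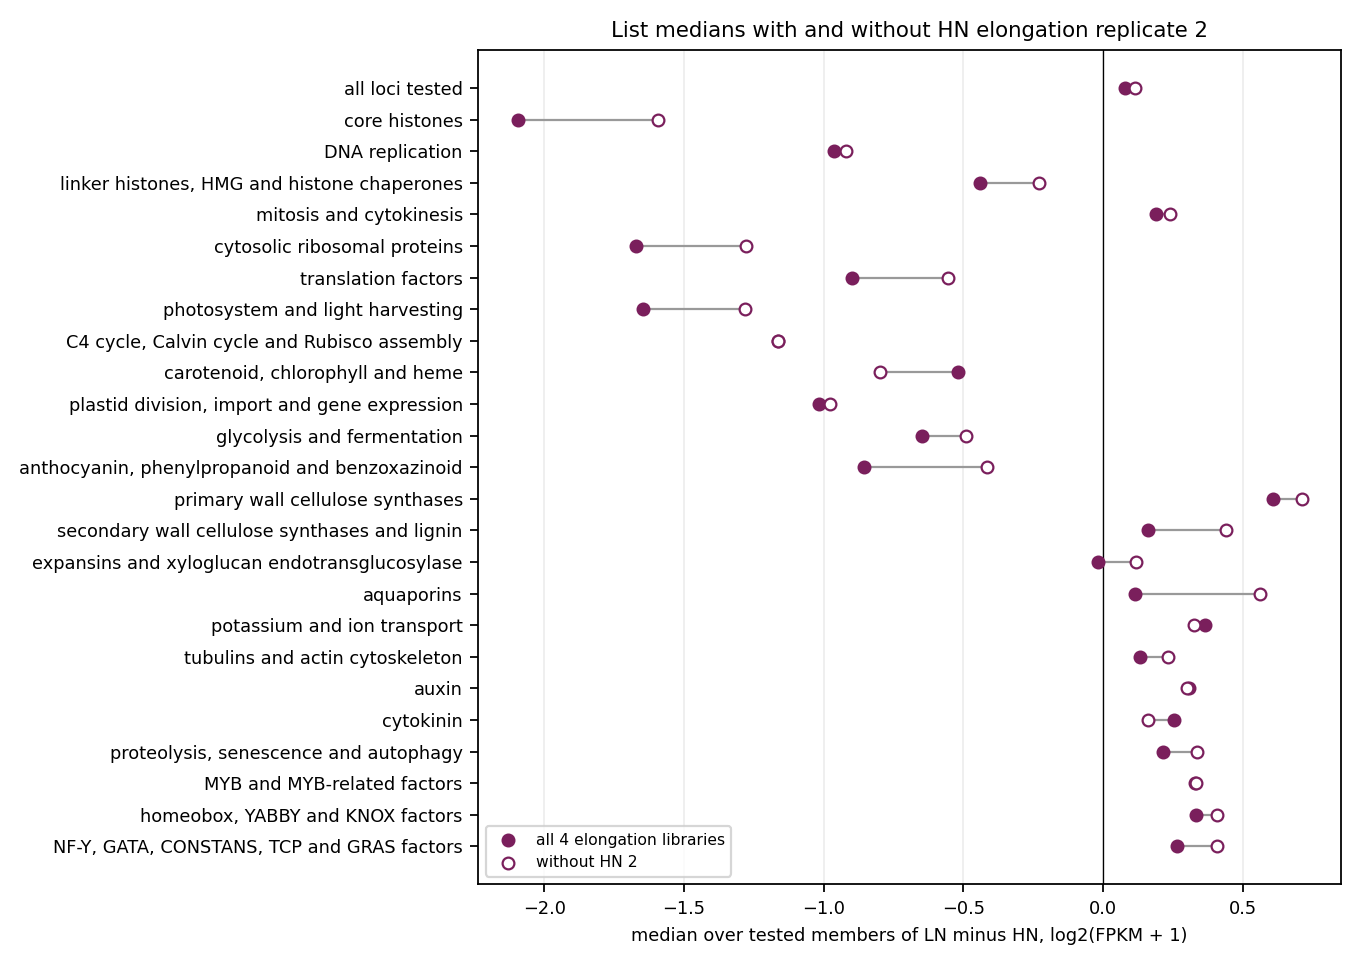
Median log2 change, LN minus HN, of 24 gene lists and of all loci tested, with all libraries (filled) and without HN elongation replicate 2 (open). The medians of core histones, ribosomal proteins and photosystem genes stay under 0, with core histones at -2.10 and -1.59, while aquaporins stand at 0.11 with all libraries and 0.56 without that one.

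Of 28 cytokinin genes 4 rose and 6 fell in both fits. Type-A response regulators, which are induced by cytokinin and dampen its signal, fell at 5 of 8 loci in both fits (median -1.36, and -1.15 without HN 2). RR7 was at 3.35 and 3.91 FPKM in the LN and 15.99 and 21.996 FPKM in the HN libraries (-2.10, adjusted p = 0.00327, -1.88 without HN 2), and crr2 at 2.37 and 2.604 FPKM in the LN and 9.46 and 15.6 FPKM in the HN libraries (-1.92, -1.58 without HN 2). The histidine kinases that act as cytokinin receptors rose at 3 of 6 loci in both fits (median 0.75, and 0.67 without HN 2), and 1 of 3 type-B regulators, RR8, rose. HK1b1 was at 10.02 and 10.1 FPKM in the LN and 5.91 and 5.48 FPKM in the HN libraries (0.73, 0.68 without HN 2). The beta-glucosidase glu1, which releases cytokinin from its glucoside, was at 50.03 and 47.3 FPKM in the LN and 137 and 250.2 FPKM in the HN libraries (-1.91, -1.47 without HN 2). In the auxin list 6 of 46 rose and 2 fell in both fits. NIT2, a nitrilase, was at 1.52 and 1.23 FPKM in the LN and 6.27 and 6.87 FPKM in the HN libraries (-1.67, -1.62 without HN 2), ABP1, auxin-binding protein, was at 92.1 and 108 FPKM in the LN and 221 and 318 FPKM in the HN libraries (-1.40, -1.14 without HN 2), and the list member AUX1 (GRMZM2G000158) was at 7.16 and 7.07 FPKM in the LN and 1.53 and 0.966 FPKM in the HN libraries (1.86, 1.68 without HN 2). Auxin response factors, transcription factors, rose at 2 of 18 loci.

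The list of gibberellin genes, on which the series has a question, held 7 tested loci with 6 identifiers, since 2 were of Dwarf2. It was drawn from gene names and does not cover the whole pathway, and none of its tested loci was named as a gibberellin receptor. CYP714B3 rose and CYP88A1 fell in both fits. CYP714B3, of a cytochrome P450 family that inactivates or modifies gibberellins in rice, was at 14.7 and 14.04 FPKM in the LN and 3.46 and 4.899 FPKM in the HN libraries (1.58, adjusted p = 0.005499, 1.78 without HN 2). CYP88A1, ent-kaurenoic acid oxidase, an enzyme of gibberellin synthesis, was at 0.737 and 0.584 FPKM in the LN and 1.71 and 1.82 FPKM in the HN libraries (-0.74, -0.71 without HN 2). Of the DELLA genes, repressors of gibberellin response, D8 was more abundant than d9 and was not called (-0.49, 0.01 without HN 2). D8 was at 76.2 and 67.1 FPKM in the LN and 71.0 and 143 FPKM in the HN libraries, with overlap of the groups. The DELLA gene d9 was at 17.3 and 15.4 FPKM in the LN and 24.5 and 30.5 FPKM in the HN libraries. It was called lower with all libraries (-0.71, adjusted p = 0.0451) but not without HN replicate 2 (-0.56, adjusted p = 0.135). Beside lox1, the jasmonate list had 1 other fall, lox6, and 1 rise, lox9, among 31 in both fits; lox6 was at 45.8 and 55.3 FPKM in the LN and 114 and 96.2 FPKM in the HN libraries (-1.04, -1.16 without HN 2). Lipoxygenases begin the synthesis of oxylipins such as jasmonate, and of 12 TIFY repressors none was called in both fits. Brassinosteroid and strigolactone genes rose at 3 of 9, serk1, serk2 and serk3, and fell at D14a. Of 40 genes for the core of abscisic acid signalling and for ethylene, 2 rose and 2 fell in both fits. The ethylene-forming oxidase acco20 was at 0.287 and 0.224 FPKM in the LN and 2.54 and 3.54 FPKM in the HN libraries (-1.68, -1.495 without HN 2), and SnRK2.11, a kinase of the abscisic acid pathway, was at 35.2 and 35.8 FPKM in the LN and 19.9 and 15.04 FPKM in the HN libraries (a fold of 2.03, and 0.80 on the log2 scale without HN 2). At acco20 and CYP88A1 the LN libraries were under 1 FPKM. At all the hormone loci given with values except D8, both LN libraries lay on one side of both HN libraries. Without LN replicate 1 and 2, 2 and 3 cytokinin loci were called lower and 0 and 0 higher, and 2 and 3 auxin loci higher. In both cases lox1, D14a and serk1 were called, and no abscisic acid or ethylene gene.

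Genes of central carbon metabolism fell in part. Of 31 glycolysis and fermentation loci 10 fell and 1 rose in both fits (median -0.65, and -0.49 without HN 2). The glyceraldehyde-3-phosphate dehydrogenase gpc4 was at 73.5 and 75.6 FPKM in the LN and 219 and 351.6 FPKM in the HN libraries (-1.88, -1.54 without HN 2). ENO1, an enolase, was at 97.4 and 109 FPKM in the LN and 180.5 and 249 FPKM in the HN libraries (-1.04, -0.80 without HN 2), and pdh2, of pyruvate dehydrogenase, was at 47.6 and 46.3 FPKM in the LN and 92.9 and 134 FPKM in the HN libraries (-1.23, -0.97 without HN 2). In both fits 6 of 45 sucrose, hexose and starch loci fell and 1 rose. AGA2 was at 5.12 and 6.71 FPKM in the LN and 19.7 and 20.5 FPKM in the HN libraries (-1.62, -1.59 without HN 2), and Agp2, of the ADP-glucose pyrophosphorylase that makes the starch precursor, at 3.81 and 3.96 FPKM in the LN and 11.4 and 9.85 FPKM in the HN libraries (-1.249, -1.35 without HN 2). SPP2, sucrose phosphatase, fell by 1.30 on the log2 scale, and its levels were 0.439 and 0.843 FPKM in the LN and 2.89 and 3.12 FPKM in the HN libraries (-1.26 without HN 2). The galactinol synthase gols2 rose at low levels, standing at 1.58 and 1.68 FPKM in the LN and 0.241 and 0.227 FPKM in the HN libraries (1.09, 1.08 without HN 2). Among 17 signalling kinases of energy and nutrients, 3 rose and 1 fell in both fits. The SNF1-related kinase akin1, of a family that responds to energy shortage, was at 51.1 and 52.5 FPKM in the LN and 95.7 and 125 FPKM in the HN libraries (-1.06, -0.87 without HN 2), and S6K, a target of the TOR kinase, was at 4.595 and 5.49 FPKM in the LN and 2.54 and 2.28 FPKM in the HN libraries (0.82, 0.77 without HN 2). Both LN libraries of each stood on one side of both HN libraries. None of the glycolysis loci was called without LN replicate 1, and 1 without LN replicate 2. In the sucrose and starch list 3 and 3 were then called lower, and no kinase was called.

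Genes for defence compounds fell. Benzoxazinoid genes, which make the defence compound DIMBOA of young maize, fell at 6 of 9 loci in both fits, with a median of -1.83, and -1.55 without HN 2. CYP71C4, the enzyme also named BX2, was at 11.7 and 16.9 FPKM in the LN and 123 and 151 FPKM in the HN libraries (-3.19, adjusted p = 0.00186, -3.04 without HN 2). BX4 was at 58.003 and 69.1 FPKM in the LN and 256 and 328 FPKM in the HN libraries (-2.18, -1.999 without HN 2) and CYP71C3 at 108 and 131 FPKM in the LN and 494 and 707 FPKM in the HN libraries (-2.30, -2.04 without HN 2). In the wider list with anthocyanin and phenylpropanoid genes 8 of 22 fell and 1 rose in both fits. The falls were the 6 benzoxazinoid loci, dfr1 and a pac1 locus (XLOC_028283). The gene dfr1, dihydroflavonol reductase of anthocyanin synthesis, was at 21.3 and 28.3 FPKM in the LN and 67.4 and 76.4 FPKM in the HN libraries (-1.51, -1.42 without HN 2). The rise was a2, at 13.9 and 14.9 FPKM in the LN and 6.44 and 9.54 FPKM in the HN libraries (0.79, 1.05 without HN 2). No other locus outside the benzoxazinoid genes was called with all libraries. This list held 6 and 8 calls of lower without LN replicates 1 and 2. Glutathione transferases, detoxifying enzymes, went both ways. Of 22, with all libraries 4 fell, while gst24, gst9, gst16 and gst37 rose. Of these rises only gst24 was called in both fits. The transferase gst4 was at 239 and 249 FPKM in the LN and 576 and 1020.4 FPKM in the HN libraries (-1.65, -1.23 without HN 2). Redox defence genes fell at 6 of 31, and none rose. The glutathione reductase gor1 was at 18.3 and 21.2 FPKM in the LN and 55.6 and 40.3 FPKM in the HN libraries (-1.22, -1.45 without HN 2). Heat shock and folding genes fell at 4 of 40, 2 of them the CPN60I loci above, and rose at 1. That share of falls was near the 9.88% of all loci. Without LN replicates 1 and 2, 0 and 2 redox and 2 and 2 heat shock genes were called lower, and 0 and 0 transferases. At every gene of this paragraph given with values except a2, both LN libraries lay under both HN libraries, and at a2 they lay above both.

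Some genes of protein breakdown, 1 protease inhibitor and 2 CER1 loci of the cuticle list rose. In the list of proteolysis, senescence and autophagy genes, 5 of 28 rose and 1 fell in both fits. The protease see2b, a senescence-associated legumain of the vacuole, was at 129.8 and 103 FPKM in the LN and 23.9 and 23.9 FPKM in the HN libraries (2.23, adjusted p = 0.00179, 2.23 without HN 2), and the related see2a was at 26.2 and 26.5 FPKM in the LN and 10.5 and 11.98 FPKM in the HN libraries (a fold of 2.35, and 1.2495 on the log2 scale without HN 2). The list also holds cystatins, which inhibit proteases, and 1 of its 5 rises and its 1 fall were of these. The cystatin cc6 was at 1.97 and 2.86 FPKM in the LN and 0.113 and 0.399 FPKM in the HN libraries (1.44, 1.61 without HN 2), and cys1 was at 44.7 and 51.6 FPKM in the LN and 87.98 and 70.8 FPKM in the HN libraries (-0.71, -0.86 without HN 2). Of 13 autophagy genes, 6 rose with all libraries and 2 in both fits. ATG3, which acts in conjugating ATG8 to lipid, was at 41.8 and 47.1 FPKM in the LN and 27.8 and 24.4 FPKM in the HN libraries (0.75, 0.66 without HN 2), and atg9 was at 11.2 and 10.8 FPKM in the LN and 7.03 and 4.54 FPKM in the HN libraries (0.85, 0.58 without HN 2). Of 16 cuticle and wax loci, 2 rose with all libraries, both named CER1 and called in both fits. The second of them (XLOC_020751) was at 5.23 and 3.25 FPKM in the LN and 0.628 and 2.11 FPKM in the HN libraries (1.19, 1.66 without HN 2). In the same list plt1 fell with all libraries, though not in both fits. It was at 204 and 197 FPKM in the LN and 318 and 637 FPKM in the HN libraries (-1.16, -0.66 without HN 2). Without LN replicates 1 and 2, 2 and 3 of the proteolysis list and 1 and 2 of the cuticle list were called higher.

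Several transcription factor families had more rises than falls in both fits. NF-YA, the subunit that binds the CCAAT box, rose at 7 of 8 loci in both fits (median 1.57, and 1.12 without HN 2). NF-YA11 was at 13.7 and 13.8 FPKM in the LN and 3.32 and 1.72 FPKM in the HN libraries (2.11, 1.77 without HN 2), NF-YA13 (chromosome 5, 211715054 to 211720050) at 12.2 and 10.4 FPKM in the LN and 2.504 and 0.749 FPKM in the HN libraries (2.31, 1.81 without HN 2) and NF-YA7 at 17.7 and 18.4 FPKM in the LN and 7.48 and 2.96 FPKM in the HN libraries (1.72, 1.17 without HN 2). HN replicate 2 was lower than HN replicate 1 at these loci, so the change without it was smaller, 1.17 for NF-YA7. In the wider list of NF-Y, GATA, CONSTANS, TCP and GRAS factors 8 of 33 rose and 1 fell in both fits, COL8, of the CONSTANS-like family, at 2.76 and 1.98 FPKM in the LN and 8.81 and 10.3 FPKM in the HN libraries (-1.66, -1.55 without HN 2). MYB and MYB-related factors rose at 11 of 50 and none fell in both fits. Myb30 was at 3.53 and 3.72 FPKM in the LN and 0.522 and 1.17 FPKM in the HN libraries (1.35, 1.603 without HN 2), and MYBR67 at 8.81 and 9.404 FPKM in the LN and 4.93 and 3.34 FPKM in the HN libraries (0.99, 0.77 without HN 2). Homeobox, YABBY and KNOX factors, regulators of leaf form, rose at 6 of 40 and none fell. ZHD13, a zinc finger homeodomain factor, was at 29.6 and 22.6 FPKM in the LN and 2.65 and 7.25 FPKM in the HN libraries (2.29, 2.88 without HN 2), KNOX1 at 18.6 and 20.98 FPKM in the LN and 9.27 and 7.71 FPKM in the HN libraries (1.13, 1.02 without HN 2) and YAB3 at 37.9 and 44.5 FPKM in the LN and 24.5 and 20.5 FPKM in the HN libraries (0.84, 0.72 without HN 2). The HN libraries of ZHD13 differed from each other, and both LN libraries were above them.

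Other families had few calls in both fits. The bHLH and bZIP factors rose at 3 of 54 and fell at 3, the SBP factors rose at 2 of 18, the NAC factors at 1 of 17 and AP2/ERF and heat shock factors at 1 of 30, with no falls in these last 3. The factor bHLH165 was at 20.2 and 17.6 FPKM in the LN and 9.03 and 6.05 FPKM in the HN libraries (1.24, 0.98 without HN 2), and lg1, the ligule regulator of the SBP family, at 2.26 and 2.35 FPKM in the LN and 0.857 and 1.01 FPKM in the HN libraries (0.77, 0.83 without HN 2). The WRKY and GLK list had, beside GLK44, a rise of GLK15 at 12.6 and 13.5 FPKM in the LN and 7.76 and 7.27 FPKM in the HN libraries (0.72, 0.68 without HN 2) among 16. Growth-regulating factors had no call in both fits among 16, the most abundant being GRF4 and GRF10. GRF4 was at 15.004 and 15.7 FPKM in the LN and 13.7 and 22.1 FPKM in the HN libraries, with overlap of the groups. GRF10 was at 16.6 and 15.8 FPKM in the LN and 11.1 and 14.98 FPKM in the HN libraries, with LN replicate 2 close to HN replicate 2. Light and clock loci gave 1 fall, PhyB2, and 1 rise, a phyA2 locus, both of phytochromes, among 10. That phyA2 locus (XLOC_024351) was at 1.04 and 1.64 FPKM in the LN and 0.207 and 0.166 FPKM in the HN libraries (0.97, 0.94 without HN 2). A further phyA2 locus (XLOC_026652) with the same identifier and span was not called, at 1.93 and 2.44 FPKM in the LN and 2.51 and 1.51 FPKM in the HN libraries (0.10, -0.15 without HN 2). PhyB2 was at 2.39 and 2.74 FPKM in the LN and 5.68 and 4.905 FPKM in the HN libraries (-0.82, -0.91 without HN 2). Of 20 splicing SR proteins, SRP2B rose at 10.1 and 9.24 FPKM in the LN and 6.28 and 4.99 FPKM in the HN libraries (0.69, 0.55 without HN 2). The MYB list held 3 and 2 rises without LN replicates 1 and 2, the NF-Y list 2 and 3, and the homeobox, SBP, NAC and AP2/ERF lists none.

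The nitrogen response differed between zones at few named loci. The difference, elongation response minus division response, was called at 44 loci (0.19%), 22 in each direction, with 4111 loci at an unadjusted p under 0.05. It was 0 without HN division replicate 1, without HN division replicate 2 and without LN division replicate 2, and 4 without LN division replicate 1, against 3857 without HN elongation replicate 1, 87 without HN elongation replicate 2 and 75 and 77 without LN elongation replicates 1 and 2. In the division zone itself limma called 1014 of the tested loci (4.38%). Of the named loci, CER1 rose by 2.39 in the elongation zone, and in the division zone, where the LN libraries held 0.0585 FPKM and 0 and the HN libraries 0.146 and 0.506 FPKM, the change was -0.35. CesA-7 was at 75.7 and 77.5 FPKM in the LN and 54.3 and 42.9 FPKM in the HN libraries in the elongation zone (0.65), and at 7.61 and 7.54 FPKM in the LN and 17.9 and 19.9 FPKM in the HN division libraries (-1.21). SLD5 changed by -1.91 in the elongation and 0.52 in the division zone, and nfd106 by -1.99 and 0.24.

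For whole lists, core histones had a median of -2.10 in the elongation zone and 0.24 in the division zone. The difference had an unadjusted p under 0.05 at 27 of 28 histone loci, against 17.8% of all loci, but at none after adjustment. DNA replication genes had a median of -0.96 and 0.16, with 10 of 16 at an unadjusted p under 0.05 and 1 called. Plastid genes had medians of -1.02 and -0.63, with 17 called in the division zone, and the difference had at 14 of 55 an unadjusted p under 0.05. Primary wall cellulose synthases had medians of 0.61 and -0.33, with 8 of 9 at an unadjusted p under 0.05 and 1, CesA-7, called.

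**Figure D5:**
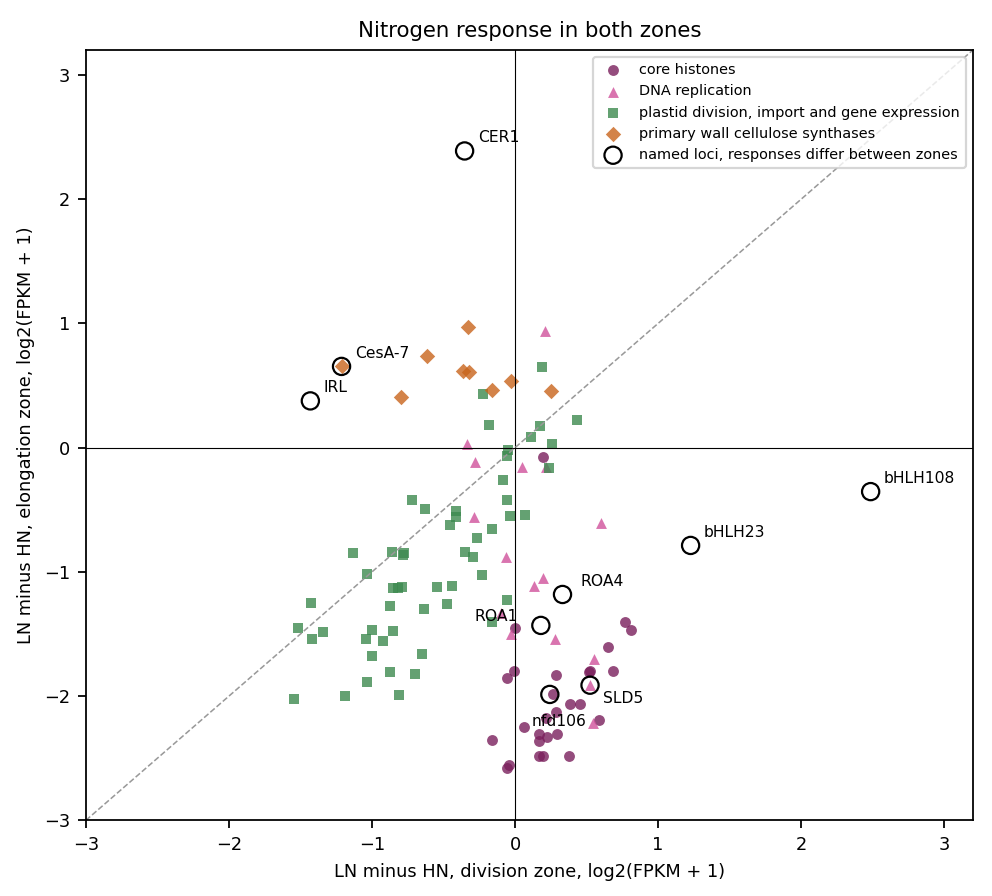
Log2 change in the elongation zone (vertical) against that in the division zone (horizontal), LN minus HN, for histones, DNA replication, plastid and cellulose synthase genes and, circled, 9 named loci whose difference between zones was called. Most histones lie far under the diagonal, near 0 on the division axis, while most plastid genes are under 0 on each axis.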

How the data were processed

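The deposited table lists 1 value per locus and library, read as FPKM; neither header nor labels state the unit, which was judged from the values. The authors' processing used TopHat2 and edgeR with the build B73 RefGen_v3, per the submitters' processing notes; the sources used here give no version or role for them. Its 44070 lines hold 43110 loci, 865 with several gene identifiers and 4993 sharing a span with another locus; each was kept once. Names came from a RefSeq table of assembly Zm-B73-REFERENCE-NAM-5.0, matched by identifier (18442 loci, 2756 with an informative name). The plan assumed that counts might be deposited; as FPKM were, limma 3.58.1 (R 4.3.3) was run on log2(FPKM + 1) with an intensity trend, 4 group means, 8 libraries and 4 residual degrees of freedom, and checked on simulated data. p-values measure the spread between libraries. Genes named were the 12 largest rises and falls, up to 6 transcription factors each way, up to 5 members per list called in both fits by adjusted p (or the 2 most abundant where none was), and some members whose call changed without HN replicate 2; RR8 and HK1b1 were chosen after their values were seen. Members and lists were chosen with earlier results of these data known. Alternatives were other pseudocounts, filters, scalings and weights, a replicate block, a minimum log2 change of 1 and libraries left out. Figures used Python 3.11.15 with pandas 2.3.3, numpy 2.4.6 and matplotlib 3.10.9.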

Additional observations from a re-analysis of the deposited data

Results flagged for a closer look

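The response to nitrogen differed between elongation and division zone at 9 named loci by the interaction term of limma with Benjamini-Hochberg adjustment. The transcription factor bHLH108 changed by -0.35 in the elongation zone and 2.49 in the division zone, a difference of -2.84 (adjusted p = 0.0374). In the division zone it stood at 5.47 and 4.14 FPKM under LN, against 0.0608 and 0 FPKM under HN. In the elongation zone it stood at 1.04 and 1.05 FPKM under LN, against 1.64 and 1.59 FPKM under HN. Another bHLH factor, bHLH23, changed by -0.79 and 1.23 in the same order, a difference of -2.01 (0.0452). Differences under 0 were also found for the replication gene SLD5 at -2.44, for nfd106 at -2.23, and for ROA1 and ROA4 at -1.61 and -1.51; each fell in the elongation zone, by 1.91, 1.99, 1.43 and 1.18 on the log2 scale, and had a division zone change between 0.18 and 0.52. Differences above 0 were 2.74 for CER1, 1.81 for IRL and 1.87 for CesA-7. IRL changed by 0.38 in the elongation and -1.43 in the division zone. Without HN elongation replicate 2, 6 of the 9 remained called; SLD5, IRL and bHLH23 did not, at adjusted p = 0.0597, 0.0597 and 0.0586. None of the 9 remained called when any division library was left out, with a replicate block or with group weights, and 1 did without each of the LN elongation libraries.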

How the results depend on the processing

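Of 185 elongation loci chosen by the rule for named genes, which fixed their calls with and without HN replicate 2, 182 stayed on the same side of the threshold without HN replicate 1, 174 with a replicate block, 124 with group weights, 66 and 77 without LN replicates 1 and 2, and 13 in the fit of 2 groups alone. None of them changed direction under these alternatives. The count of 5833 calls ran from 641 to 10356 with a library left out, was 8946 with libraries set to an equal total, 2096 with group weights, 42 in 2 groups alone and 2907 with a log2 change of at least 1. It was 5150 with a pseudocount of 0.1, 5613 with an equal median ratio, 5006 of 16181 loci with the filter at 5 FPKM and 4872 of 33346 with no filter. The 406 calls among listed loci ran from 74 to 569, with 194 under group weights and 7 in 2 groups alone. Of the 24 largest changes 18 to 24 stayed called with a library left out, and 9 in 2 groups alone. The 44 differences between zones ran from 0 to 3857 with a library left out, and were 76 with the smaller pseudocount, 25 with the filter at 5 FPKM, 152 with no filter, 160 at an equal total and 7 with group weights. The labels do not say whether libraries of the same replicate number share a plant or a batch. Deviations of same-numbered LN and HN elongation libraries correlated at -0.0382 across loci, and those of LN and HN division libraries at -0.242. The values were -0.163 for the zones under HN and -0.0386 for the zones under LN. With 2 libraries per group these correlations cannot decide whether the numbers pair the samples. A block for the number gave 4514 calls, 336 among listed loci, all 24 largest changes and 2 differences between zones. The cause of these shifts was not tested. Unknown depth limits what can be said of loci near 1 FPKM.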
